A study of Mus musculus with 2 samples.

Results

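The genes of oxidative phosphorylation were taken as the gene symbols that begin with Nduf, Uqcr, Cox4 to Cox8, Atp5 or the mitochondrial prefix of a respiratory protein (mt-Nd, mt-Co, mt-Cytb, mt-Atp), together with Sdha, Sdhb, Sdhc and Sdhd. Of 105 such genes, 6 had fewer than 10 counts in both libraries and were left out, which gave 99 members among the 12941 genes tested (25509 in the table). Of these, 86 are nuclear genes and 13 lie on mitochondrial DNA (mtDNA). The study compared mouse soft-tissue sarcoma cells that carried a hairpin against circCsnk1g3, a circular RNA (shcircCsnk1g3), with cells given a control hairpin (shCTR), 1 RNA-seq library each. Both came from C57BL/6 mesenchymal stem cells that were p53-/- and overexpressed Ccne1 from a retrovirus, grown as tumors under the skin of mice, seeded in the lungs of further mice and recovered from lung foci before the lentiviral hairpins were added. The cells are thus of 1 origin, and neither a condition nor a culture was repeated.

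Oxidative phosphorylation passes electrons from NADH through complex I, or from succinate through complex II, to ubiquinone, complex III, cytochrome c and complex IV, where oxygen is reduced. The protons pumped by complexes I, III and IV drive ATP synthesis by complex V. Apart from complex II, which is wholly nuclear, each complex joins subunits imported from the cytosol with membrane subunits made inside the organelle from mtDNA, so that both genomes have to be expressed for assembly.

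Estimated counts summed to 38792143 in shcircCsnk1g3 and 42709996 in shCTR. The log2 fold change is that of CPM (counts scaled to library size) adjusted by TMM (trimmed mean of M-values) with a prior count of 2, positive where shcircCsnk1g3 was higher, and in brackets after it stands a 95% interval for the ratio of the counts (exact, Clopper-Pearson). The interval covers counting error only and compares the libraries, not the conditions, and with 1 library per condition no test was made. Csnk1g3, the host gene of the circular RNA, had 2159 and 2411 counts, -0.05 (-0.14 to 0.03), which reflect its linear transcript because the libraries were selected for poly(A). Trp53 was present at 3841 and 4334 counts in cells described as p53-/-, and the sources used here do not give the deleted part of the gene, so these counts do not check the label. Ccne1 had 893 and 963 counts. Of 10 mesenchymal markers, 9 were tested and summed to 12459 and 13221 CPM, whereas Thy1 had 0 and 1 count. Of 10 leukocyte markers, 6 had no count in either library, Ptprc had 1 and 0, and the list summed to 2.30 and 3.86 CPM, nearly all from Cd68. The endothelial markers summed to 0.434 and 0.639 CPM, with Kdr at 0, and the lung epithelial markers to 2.75 and 1.61 CPM, with Sftpc, Nkx2-1 and Epcam at 0. Yam1, Gm42418 and Lars2, listed as genes that may take up reads of ribosomal RNA, held 0.464% of the counts in shcircCsnk1g3 and 0.142% in shCTR, and their part in the results was not tested.

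The complex IV gene Cox5b stood apart from the other members, and its promoter is shown with those of the other complex IV genes that were at least 1.2-fold lower and of Uqcr10, the abundant member that was highest relative to the control. The sequences are from RefSeq (GRCm38.p6), from 250 bases before to 50 bases after the annotated start, on the strand of the gene. They lie at chr1:36691237-36691536 (plus strand, Cox5b), chr9:57520982-57521281 (plus, Cox5a), chr5:115348909-115349208 (minus, Cox6a1), chr19:7217567-7217866 (minus, Cox8a) and chr11:4704295-4704594 (minus, Uqcr10). Capitals mark exact matches, on either strand, to 6 motifs of factors known from respiratory gene promoters: NRF1 (the 10-letter palindrome in capitals in the Cox6a1 sequence), ETS factors such as GABP (ACCGGAAG), YY1 (CAAGATGGC), CREB (TGACGTCA), SP1 (GGGCGG) and NF-Y (CCAAT).
Cox5b: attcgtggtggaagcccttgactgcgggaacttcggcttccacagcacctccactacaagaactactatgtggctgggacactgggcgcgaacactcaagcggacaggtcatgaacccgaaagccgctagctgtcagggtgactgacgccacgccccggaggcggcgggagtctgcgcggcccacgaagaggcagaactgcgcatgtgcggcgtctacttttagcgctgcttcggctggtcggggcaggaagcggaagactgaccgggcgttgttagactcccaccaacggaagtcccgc
Cox5a: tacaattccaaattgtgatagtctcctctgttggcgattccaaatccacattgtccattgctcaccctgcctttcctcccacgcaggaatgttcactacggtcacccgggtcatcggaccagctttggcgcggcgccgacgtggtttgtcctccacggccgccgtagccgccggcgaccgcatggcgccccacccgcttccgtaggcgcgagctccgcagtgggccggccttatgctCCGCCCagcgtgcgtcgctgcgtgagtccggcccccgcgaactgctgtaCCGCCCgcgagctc
Cox6a1: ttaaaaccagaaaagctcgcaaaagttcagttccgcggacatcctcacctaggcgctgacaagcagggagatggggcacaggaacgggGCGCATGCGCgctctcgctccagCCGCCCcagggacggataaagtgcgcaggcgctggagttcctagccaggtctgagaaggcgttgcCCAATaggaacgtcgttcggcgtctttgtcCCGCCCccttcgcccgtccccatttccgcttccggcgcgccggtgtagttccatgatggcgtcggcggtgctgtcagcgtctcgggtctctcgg
Cox8a: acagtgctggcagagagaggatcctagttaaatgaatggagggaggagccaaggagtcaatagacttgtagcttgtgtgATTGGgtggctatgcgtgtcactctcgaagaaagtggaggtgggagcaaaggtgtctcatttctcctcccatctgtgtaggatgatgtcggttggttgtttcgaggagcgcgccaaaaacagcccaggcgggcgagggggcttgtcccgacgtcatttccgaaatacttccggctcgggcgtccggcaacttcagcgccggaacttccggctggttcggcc
Uqcr10: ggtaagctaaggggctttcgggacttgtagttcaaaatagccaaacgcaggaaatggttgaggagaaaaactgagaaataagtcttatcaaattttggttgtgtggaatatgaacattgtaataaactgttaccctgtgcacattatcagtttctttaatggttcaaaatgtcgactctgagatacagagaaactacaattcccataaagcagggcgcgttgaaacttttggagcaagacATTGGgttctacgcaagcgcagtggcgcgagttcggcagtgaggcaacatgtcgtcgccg

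The Cox5b window held none of the 6 motifs as spelled. The Cox6a1 window held the NRF1 motif 162 bases before the start, with SP1 and CCAAT letters after it. Cox8a and Uqcr10 each held only CCAAT, on the opposite strand, and Cox5a only SP1 letters. These matches describe the windows and do not show binding. Promoters could be matched by symbol for 70 of the 86 nuclear members and for 9587 of the genes tested. The NRF1 motif was found in 7 members (10% of those matched), compared with 2.36% of all windows. ETS letters were in 7 members (10%, against 5.39%), YY1 in 5 (7.14%, against 2.63%) and the CREB motif in 4 (5.71%, against 3.70%). SP1 letters were less frequent among members than overall (42.9% against 68.9%), and CCAAT was as frequent (42.9% against 43.6%). Members with an NRF1 motif had a median log2 fold change of -0.04 (6 of 7 lower) and ranged from -0.28 for Cox6a1 to 0.07 for Ndufaf5, and those with ETS letters had a median of 0.01 (3 of 7 lower). The median was -0.14 for members with YY1 letters (4 of 5 lower), -0.11 with the CREB motif (2 of 4 lower), -0.11 with CCAAT (22 of 30 lower) and -0.02 with SP1 letters (19 of 30 lower). Of all genes tested 49.6% were lower, and of all 86 nuclear members 73.3%.

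Most nuclear-encoded members were slightly lower in shcircCsnk1g3. Of 86, 63 were lower (73.3%) and 23 higher, against a background of 49.6% of all genes tested that were lower and 50.4% that were higher. With total counts in place of TMM, 53 of 86 were lower (61.6%) against 44.0% of all genes, and after correction for gene length and GC content 51 were (59.3%) against 49.8%. The size of the difference was small: the median was -0.07 with an interquartile range of 0.17, whereas all genes had a median of 0.00 and an interquartile range of 0.32, or 0.27 for genes with at least 200 and 0.25 for genes with at least 1000 summed counts. Only 7 nuclear members (8.14%) were at least 1.2-fold lower, fewer in proportion than the 16.4% of all genes, and 2 were at least 1.2-fold higher, where the background was 15.7%. No member was at least 2-fold higher, against 2.13% of all genes. Among genes with at least 200 summed counts, which include 97 of the 99 members, 49.8% were lower and 50.2% higher, 12.5% and 11.1% by at least 1.2-fold (10.4% and 8.61% at 1000 or more), and 0.563% were at least 2-fold higher. The counting interval lay below 0 for 39 nuclear members, above 0 for 5 and spanned 0 for 42. The same count over all genes was not made. The interval narrows as counts rise, so these numbers also reflect depth and do not set the members apart.

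The mtDNA-encoded members had a median near 0, with mt-Nd2, mt-Nd3 and mt-Nd1 lowest. Of 13, 8 were lower (61.5%, against 49.6% of all genes) and 5 higher, the median was -0.03, and values ran from -0.39 to 0.07. At least 1.2-fold lower were 2 (15.4%, near the 16.4% of all genes), and with total counts, where the share of all genes was not counted, 1 was. The counting interval lay below 0 for 7, above 0 for 3 and spanned 0 for 3, again without a count over all genes. The nuclear median was below the mtDNA median by 0.03 on the log2 scale, with no test of the difference. The mtDNA members together held 2.97% of all counts in shcircCsnk1g3 (Clopper-Pearson interval 2.97 to 2.98) and 2.99% in shCTR (2.99 to 2.996). The nuclear members held 0.744% (0.741 to 0.747) and 0.782% (0.779 to 0.784). As shares of the poly(A) libraries, the mitochondrial messages were thus nearly equal and the nuclear ones somewhat smaller in shcircCsnk1g3.

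**Figure D1:**
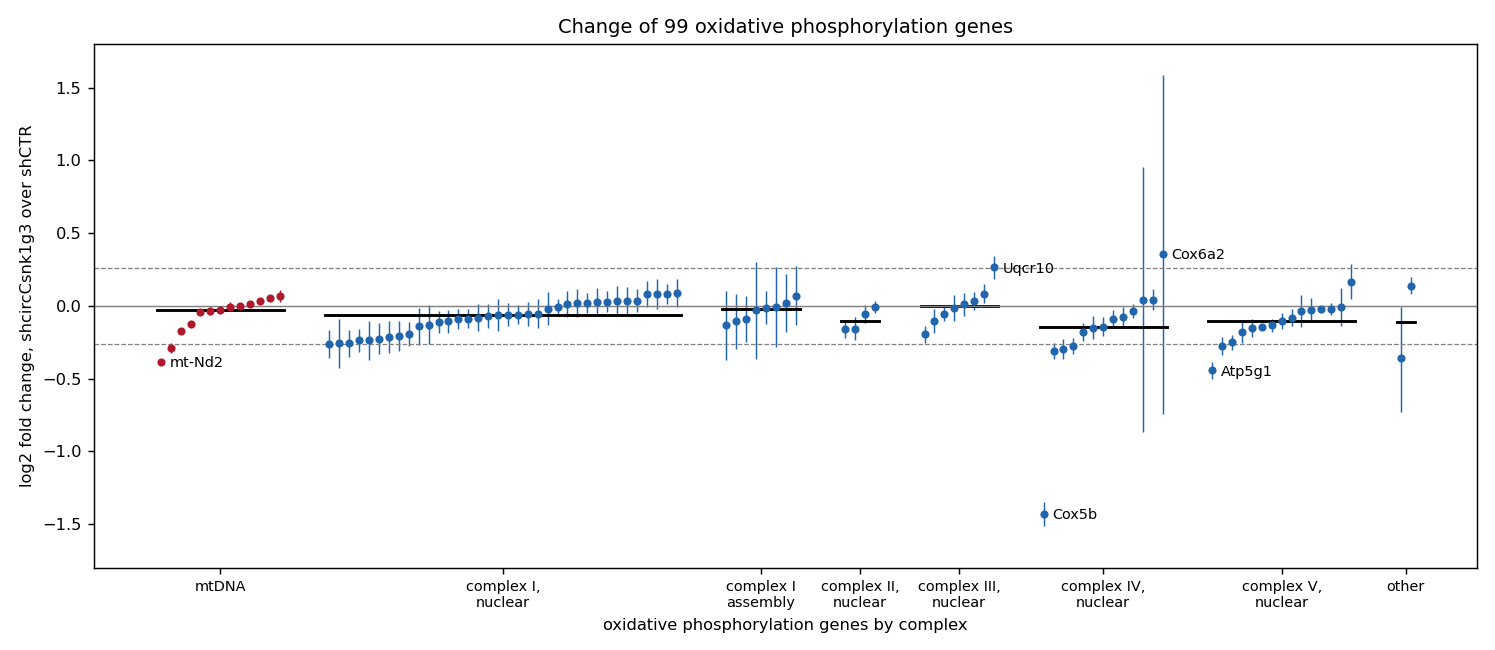
Each point is 1 of the 99 genes, sorted within its complex, with the log2 fold change of shcircCsnk1g3 over shCTR on the y axis, its 95% counting interval as a bar, the median of the group as a black line and dashed lines at 1.2-fold; "other" holds Atp5s and Cox7a2l. Cox5b at -1.43 lies far below every other gene, and the group medians lie between -0.14 for complex IV and 0.00 for complex III.

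**Figure D2:**
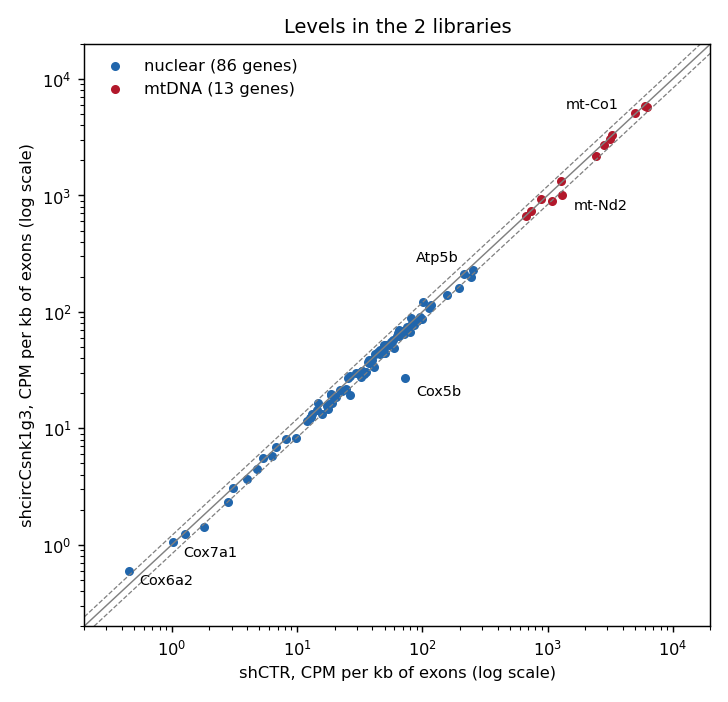
Level of each gene in CPM per kilobase (kb) of exons, shCTR on the x axis and shcircCsnk1g3 on the y axis, both on log scales, with lines at equality and at 1.2-fold. The 13 mtDNA genes (red) lie above all 86 nuclear genes (blue), and Cox5b is the gene farthest from the line of equality.

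Complex I oxidizes NADH. Its 36 nuclear subunits had a median of -0.06, 24 were lower (66.7%, against 49.6% of all genes) and 12 higher, and none was at least 1.2-fold different (16.4% of all genes were lower and 15.7% higher by that much). After the length and GC correction the median was -0.01, 19 were lower (49.8% of all genes were), and 2 were at least 1.2-fold lower, Ndufs4 (-0.29) and Ndufb2 (-0.32). The share of all genes past 1.2-fold after that correction was not counted. The 7 nuclear core subunits, which carry the flavin and iron-sulfur clusters, had a median of 0.01 with 3 lower (42.9%), and the 29 accessory subunits had a median of -0.08 with 21 lower (72.4%). Ndufs4, an accessory subunit near the NADH-oxidizing module, had 1553 counts in shcircCsnk1g3 and 2007 in shCTR, -0.26 (-0.36 to -0.17). Ndufb2, an accessory subunit of the membrane arm, had 517 and 667 counts, -0.26 (-0.43 to -0.09). Ndufv3, an accessory subunit of the NADH-oxidizing module, had 1670 and 2152 counts, -0.26 (-0.35 to -0.17). These were the lowest of the abundant nuclear complex I subunits and lay near the 1.2-fold limit, which Ndufs4 also passed with DESeq2 factors. At the other end stood Ndufs7, the core subunit that holds the last iron-sulfur cluster before ubiquinone, with 1838 and 1863 counts, 0.09 (-0.01 to 0.18). Ndufa13 had 3406 and 3465 counts, 0.08 (0.01 to 0.15), and Ndufb4 had 1481 and 1509 counts, 0.08 (-0.02 to 0.18). Both are accessory subunits, and of these highest values only that of Ndufa13 had a counting interval above 0.

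The 8 complex I assembly factors, which help build the complex without remaining in it, had a median of -0.02, with 6 lower (49.6% of all genes were) and 2 higher. With total counts in place of TMM the median was 0.01 and 4 were lower (44.0% of all genes), and after the length and GC correction 5 were (49.8%). Their counts were low, and all 8 intervals spanned 0. Ndufaf2 had 430 and 499 counts, -0.11 (-0.30 to 0.08), Ndufaf7 had 619 and 709, -0.09 (-0.25 to 0.07), and Ndufaf4 had 1239 and 1347, -0.01 (-0.13 to 0.10). Ndufaf1 had 408 and 434 counts, 0.02 (-0.18 to 0.22). Per kb of exons, Ndufaf4 was at 8.10 and 8.17 CPM in shcircCsnk1g3 and shCTR, below the lowest subunits other than Ndufb2 (2.34 and 2.81 CPM per kb). Ndufa2, an accessory subunit, was the nuclear complex I gene with the highest level, at 108 and 113 CPM per kb.

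Complex II, succinate dehydrogenase, also acts in the TCA cycle. All 4 subunits were lower (49.6% of all genes were), with a median of -0.11, and none reached 1.2-fold. With total counts 3 were lower, against 44.0% of all genes, and after the length and GC correction 2 were, against 49.8%. Sdhb, the iron-sulfur subunit, had 3909 counts in shcircCsnk1g3 and 4699 in shCTR, -0.16 (-0.22 to -0.10). Sdhc, a membrane anchor, had 2350 and 2822 counts, -0.16 (-0.24 to -0.08). The intervals of these subunits lay below 0, while those of the other two reached 0. Sdhd, the other anchor, had 3891 and 4355 counts, -0.05 (-0.12 to 0.01), and after the length and GC correction its value was 0.01. Sdha, the flavoprotein that oxidizes succinate, had 8333 and 9028 counts, -0.01 (-0.05 to 0.04), and was at 0.01 after that correction. Per kb, Sdhd was highest (80.6 and 83.7 CPM) and Sdhc lowest (18.4 and 20.6 CPM) in both libraries.

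Complex III passes electrons from ubiquinol to cytochrome c. Its 8 nuclear subunits had a median of -0.00, a value whose sign varied with the scaling, and 4 were lower and 4 higher, as were 49.6% and 50.4% of all genes. Uqcr10, a small subunit, had 2781 counts in shcircCsnk1g3 and 2492 in shCTR, 0.27 (0.19 to 0.34). It was the only member with at least 200 summed counts that was at least 1.2-fold higher. Uqcrq, another small subunit, had 3729 and 3793 counts, 0.08 (0.02 to 0.15). The core protein Uqcrc2 had 4330 and 4562 counts, 0.03 (-0.03 to 0.09). Among those lower, Uqcrh, the hinge protein, had 4202 and 5186 counts, -0.20 (-0.26 to -0.14). Uqcr11 had 2181 and 2530 counts, -0.11 (-0.19 to -0.02), and the core protein Uqcrc1 had 6203 and 6953 counts, -0.06 (-0.11 to -0.01). Uqcr10 and Uqcrq were thus above, and Uqcrh, Uqcr11 and Uqcrc1 below the control level, each with an interval that did not reach 0.

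Complex IV, cytochrome c oxidase, had the lowest median. Of its 13 nuclear genes, 10 were lower (76.9%, against 49.6% of all genes), with a median of -0.14, and 4 were at least 1.2-fold lower (30.8%, against 16.4% of all genes and 12.5% of genes with at least 200 summed counts). With total counts in place of TMM 3 were, and after the length and GC correction 2 were (15.4%), with medians of -0.11 and -0.10. The share of all genes past 1.2-fold was not counted for these settings, and 15.4% is near the 16.4% found with TMM. The only nuclear member at least 2-fold lower belongs here.

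Cox5b encodes a matrix-facing subunit of complex IV that binds zinc. It had 1684 counts in shcircCsnk1g3 and 4891 in shCTR, a log2 fold change of -1.43 (-1.51 to -1.35). Among genes with at least 200 summed counts, 0.741% were at least 2-fold lower (2.55% of all genes tested), and Cox5b ranked 20 from the lowest of 10662. Under all alternatives tried its value was between -1.43 and -1.37. Per kb of exons, its level was 72.9 CPM in shCTR and 27.1 CPM in shcircCsnk1g3, which moved it from place 10 to place 15 of the 17 genes of complex IV and Cox7a2l by level. Without Cox5b, the nuclear median was -0.06.

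Cox5b (ENSMUSG00000061518) is a plus-strand gene of chromosome 1 at chr1:36691449-36693681 (GRCm38, GENCODE M21). Its transcript Cox5b-204 has 4 exons, and the coding sequence begins in exon 1 and ends in exon 4. Of the genes on either side, Sema4c had 1299 and 1342 counts, 0.06 (-0.05 to 0.17), Actr1b had 7134 and 7641 counts, 0.01 (-0.04 to 0.06), and Tmem131 had 4332 and 4901 counts, -0.07 (-0.13 to -0.01). Ankrd23 had 310 and 369 counts, -0.14 (-0.37 to 0.08), and Ankrd39 had 33 and 29 counts, 0.28 (-0.47 to 1.07). Zap70, between Actr1b and Tmem131, had 12 counts in shcircCsnk1g3 and 0 in shCTR. No transcript typed as a pseudogene in GENCODE M21 matched Cox5b over at least 100 bases at 90% identity. Look-alikes of another type, or less alike ones, were not sought. Gm11273, which RefSeq names as a Cox5b pseudogene, had 3 counts in shcircCsnk1g3, at the floor of 3 counts below which a level was not compared, and 18 in shCTR, with an interval of the log2 ratio from -4.88 to -0.70.

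Of the other 12 nuclear complex IV genes, 9 were lower (49.6% of all genes were), by much less than Cox5b, and 3 were higher. Cox8a, a small membrane subunit, had 4832 and 6453 counts in shcircCsnk1g3 and shCTR, -0.31 (-0.36 to -0.26). Cox5a, a matrix-facing subunit, had 2768 and 3663 counts, -0.30 (-0.37 to -0.23). Cox6a1, the widely expressed isoform of subunit VIa, had 4453 and 5812 counts, -0.28 (-0.33 to -0.22). After the length and GC correction Cox8a was at -0.25 and Cox6a1 at -0.22, below 1.2-fold. Cox6b1, which faces the intermembrane space, had 3857 and 4714 counts, -0.18 (-0.24 to -0.12), and Cox7a2 had 2367 and 2831 counts, -0.15 (-0.23 to -0.07). Cox7b had 3669 and 4367 counts, -0.14 (-0.21 to -0.08). Cox4i1, the common isoform of subunit IV, differed least among the abundant lower genes, with 7009 and 7745 counts, -0.04 (-0.08 to 0.01), and after the correction it was at 0.02. Ndufa4, named for complex I but found in complex IV, had 3363 and 3818 counts, -0.08 (-0.14 to -0.01), and Cox7c had 2936 and 3074 counts, 0.04 (-0.03 to 0.11).

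Isoforms used in muscle, testis, lung or hypoxia were nearly absent in both libraries. Cox6a2 and Cox7a1, the heart and muscle isoforms, had 16 and 13 and 22 and 23 counts, with intervals from -0.74 to 1.58 and from -0.87 to 0.95, and were the members with the lowest counts. Ndufa4l2, a hypoxia-inducible paralog of Ndufa4, had 2 and 4 counts and was the nearest gene below the minimum of 10. Cox8b had 1 and 0 counts, and Cox4i2, Cox6b2, Cox7b2 and Cox8c had none in both libraries. A count of 0 allows up to 3 counts, which are 0.0773 CPM in shcircCsnk1g3 and 0.0702 CPM in shCTR by total counts. Per kb, Cox6a2 was at 0.600 and 0.452 CPM, and Cox6a1 at 162 and 196 CPM. Both libraries therefore used the common isoforms, and no exchange of an isoform was detectable at this depth.

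**Figure D3:**
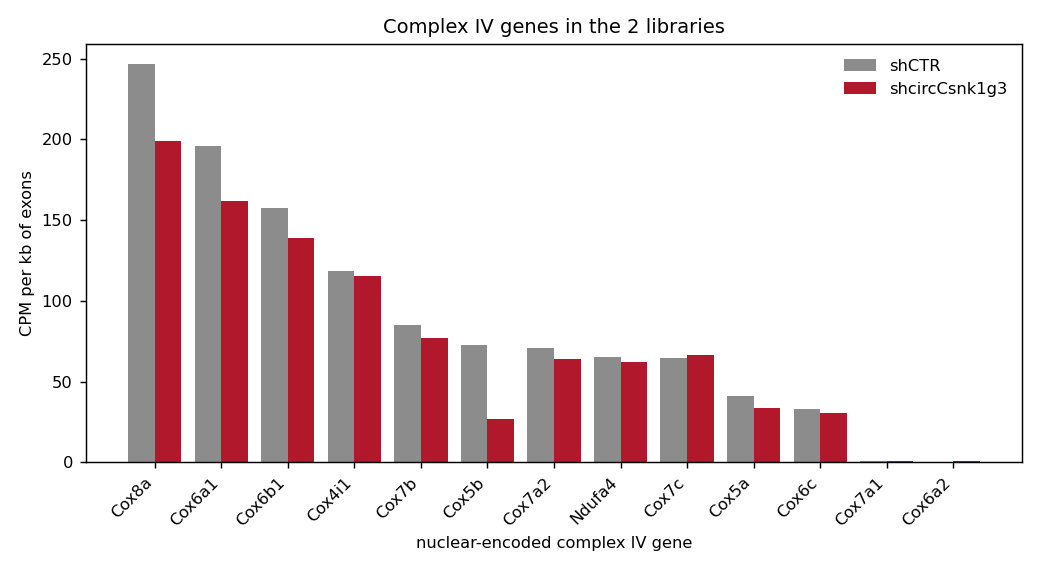
Level of the 13 nuclear complex IV genes in CPM per kb of exons in shCTR (grey) and shcircCsnk1g3 (red), ordered by the shCTR level, with 1 library per bar and hence no error bars. Cox5b, at 72.9 CPM per kb in shCTR and 27.1 in shcircCsnk1g3, is the gene with the largest relative gap, and Cox6a2 and Cox7a1 are near 0 in both.

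Of 15 nuclear genes of complex V, ATP synthase, 14 were lower (49.6% of all genes were), with a median of -0.11. With total counts 10 of 15 were lower, against 44.0% of all genes, and after the length and GC correction 11 were, against 49.8%. At least 1.2-fold lower were 2 (13.3%), a share near the 16.4% of all genes and the 12.5% of genes with at least 200 summed counts. With total counts 1 was, without a count over all genes for that setting. Atp5g1 encodes subunit c of the rotor ring, as do Atp5g2 and Atp5g3. It had 3728 counts in shcircCsnk1g3 and 5462 in shCTR, -0.44 (-0.50 to -0.38), the lowest value after Cox5b among the nuclear members. Atp5o, a subunit of the peripheral stalk, had 3788 and 4943 counts, -0.28 (-0.34 to -0.22). Atp5d of the F1 central stalk had 5074 and 6508 counts, -0.25 (-0.30 to -0.20). The only one higher was Atp5e, the smallest F1 subunit, with 1146 and 1100 counts, 0.17 (0.05 to 0.29). The peripheral stalk subunit Atp5f1 had 10026 and 10974 counts, -0.02 (-0.06 to 0.02), was at 0.01 with total counts and was at -0.10 after the length and GC correction. Atp5b and Atp5a1, the catalytic and the partner subunit of F1, were the most abundant nuclear members of the complex in both libraries, at 231 and 213 CPM per kb in shcircCsnk1g3 and 256 and 217 CPM per kb in shCTR.

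The genes of subunit c differed among themselves. Atp5g3, with 7119 and 8416 counts, was at -0.13 (-0.18 to -0.09) and had the highest level per kb of these genes in both libraries (83.2 and 91.3 CPM). Atp5g2 had 943 and 1022 counts, -0.01 (-0.14 to 0.12), but its value is uncertain. It shares 441 bases at 100% identity with the transcribed pseudogene Gm10175 on chromosome 7, which was given 11613 and 13299 counts, so that the division of reads between the pair depends on the authors' estimation. Their sum was 12556 and 14321, -0.08 (-0.12 to -0.05). Such look-alike pseudogenes were annotated for 51 members in all (141 pseudogenes of at least 100 matching bases at 90% identity), of which 5 were in the count table and 2 had 10 counts or more. The other of these was Gm10250, which resembles Atp5h, with 29 and 38 counts.

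A pair of related genes met the symbol rule without being classical subunits. Cox7a2l, a relative of Cox7a2 linked to supercomplexes of complexes III and IV, had 5179 and 5067 counts in shcircCsnk1g3 and shCTR, 0.14 (0.08 to 0.20). Atp5s, a factor linked to the coupling of ATP synthase, had 113 and 157 counts, -0.36 (-0.73 to -0.01). Cox7a2l was thus above and Cox7a2 below the control level, each with an interval that did not reach 0.

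The mtDNA genes are transcribed as long precursors from both strands and cut into messages at the transfer RNAs between them. mt-Atp8 and mt-Atp6 share a message, as do mt-Nd4l and mt-Nd4. The end of mt-Atp8 and the start of mt-Atp6 share 43 bases on the plus strand, the end of mt-Nd4l and the start of mt-Nd4 share 7, and mt-Atp6 and mt-Co3 share 1. The Atp8/Atp6 overlap is shown because reads from it cannot be assigned to one gene, with the start codon of mt-Atp6 as its first letters (chrM:7927-7969, GRCm38, GENCODE M21).
mt-Atp8/mt-Atp6: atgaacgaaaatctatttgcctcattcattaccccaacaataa

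In spite of the shared message, mt-Atp6 and mt-Atp8 were given unequal values. mt-Atp6, the channel subunit a of ATP synthase, had 153482 counts in shcircCsnk1g3 and 179929 in shCTR, -0.12 (-0.13 to -0.11). mt-Atp8 had 24433 and 26978 counts, -0.04 (-0.06 to -0.01). Their levels per kb were 5747 and 6254 CPM for mt-Atp6 and 3054 and 3130 CPM for mt-Atp8. The members of the other shared message were close to each other. mt-Nd4l had 10784 and 11087 counts, 0.07 (0.03 to 0.11), and mt-Nd4 had 71620 and 75250 counts, 0.04 (0.02 to 0.05).

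The mtDNA subunits of complex I included the lowest values of this genome. mt-Nd2 had 40968 and 57699 counts in shcircCsnk1g3 and shCTR, -0.39 (-0.40 to -0.37). mt-Nd3 had 12200 and 16059 counts, -0.29 (-0.32 to -0.25), and with total counts in place of TMM only mt-Nd2 was at least 1.2-fold lower. mt-Nd1 had 81168 and 98380 counts, -0.17 (-0.18 to -0.16). All of these encode membrane subunits of the proton-pumping arm, as do mt-Nd5 and mt-Nd6, which were level. mt-Nd5 had 52966 and 57052 counts, 0.00 (-0.02 to 0.02), and was at -0.08 after the length and GC correction. mt-Nd6, the only protein gene on the opposite strand, had 13686 and 14798 counts, -0.01 (-0.04 to 0.03). mt-Nd5 and mt-Nd6 overlap by 14 bases on opposite strands, and the strand setting of the counting is not given in the sources used here.

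Of the other mtDNA members, mt-Co1, the catalytic subunit of complex IV, had 310997 and 323249 counts, 0.05 (0.04 to 0.06), and held 0.802% and 0.757% of all counts. mt-Co2, which receives electrons from cytochrome c, had 156169 and 171999 counts, -0.03 (-0.04 to -0.02). mt-Co3 had 102198 and 109375 counts, 0.01 (-0.00 to 0.02). The mtDNA subunits of complex IV thus had a median of 0.01, beside -0.14 for its nuclear genes. mt-Cytb, the mtDNA subunit of complex III, had 121897 and 135575 counts, -0.05 (-0.06 to -0.03). With total counts in place of TMM, mt-Co2 was at -0.00048 and mt-Nd6 turned from -0.01 to 0.03, so that the direction of values this near 0 depends on the scaling.

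Per kb, the mtDNA genes ranged from 672 (mt-Nd6) to 5822 CPM (mt-Co2) in shcircCsnk1g3 and from 675 (mt-Nd6) to 6254 CPM (mt-Atp6) in shCTR. Every one of them was above the highest nuclear member, Atp5b in shcircCsnk1g3 (231 CPM per kb) and also in shCTR (256 CPM per kb). In both libraries mt-Nd6 and mt-Nd5 were the lowest. These levels count only RNA kept by selection for poly(A), and a difference in tail length between genes or libraries cannot be told apart from one in amount. Pseudogenes that resemble 11 of the 13 mtDNA genes are annotated in the nuclear genome, and the 1 in the table, Gm4076, had 1 and 2 counts. The others had no row, so any reads from them were not counted apart.

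**Figure D4:**
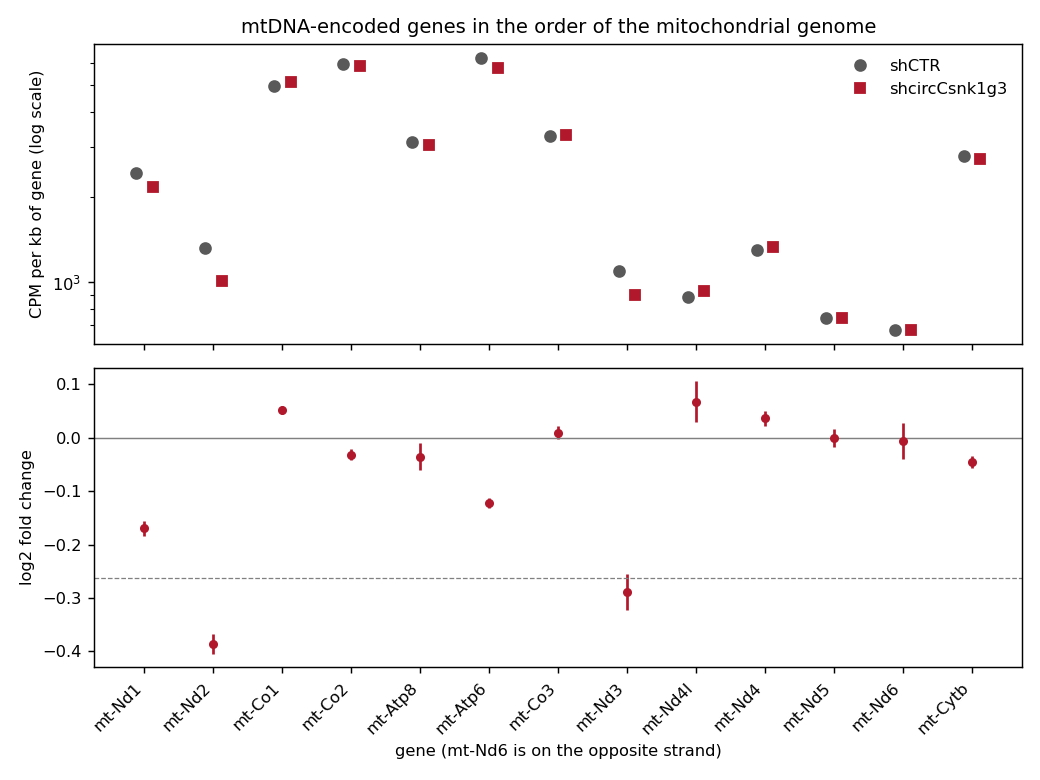
The 13 mtDNA genes in genome order, with the level in CPM per kb of gene on a log scale for both libraries (top) and the log2 fold change of shcircCsnk1g3 over shCTR with its 95% counting interval and a dashed line at 1.2-fold lower (bottom). mt-Nd2 (-0.39) and mt-Nd3 (-0.29) are lowest, and mt-Nd4l (0.07) is highest.

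Genes around the respiratory chain that the symbol rule does not take in were also counted. All 16 tested genes of mtDNA transcription and replication were higher in shcircCsnk1g3 (50.4% of all genes were), with a median of 0.10, and after the length and GC correction 15 were. Tfam, the factor that packages mtDNA and starts its transcription, had 1886 counts in shcircCsnk1g3 and 1782 in shCTR, 0.19 (0.10 to 0.28). Mterf1a had 102 and 74 counts, 0.56 (0.12 to 1.02), Mterf4 had 536 and 428 counts, 0.43 (0.25 to 0.62), and Mterf3 had 1009 and 921 counts, 0.24 (0.11 to 0.37). All 3 belong to the mitochondrial transcription termination factor family. Its members Mterf2 (150 and 153 counts, 0.08) and Mterf1b (40 and 40 counts, 0.10) had intervals that spanned 0. The polymerase Polrmt had 1650 and 1686 counts, 0.08 (-0.02 to 0.18), and the lowest were Polg, the mtDNA polymerase, with 2789 and 2937, 0.03 (-0.04 to 0.11), and Ssbp1, which binds single-stranded mtDNA, with 1069 and 1115, 0.05 (-0.08 to 0.17). Of 17 genes of mitochondrial RNA processing and stability, 10 were higher (50.4% of all genes were), with a median of 0.05, which was 0.08 with total counts and 0.02 after the length and GC correction. Their ends were Fastkd5 (374 and 528 counts, -0.39) and Fastkd1 (341 and 478, -0.38) against Fastkd2 (687 and 643, 0.20) and 1110008L16Rik (508 and 492, 0.15). Nrf1, which binds the motif found in several of the promoters, had 2290 and 2063 counts, 0.26 (0.17 to 0.34), and of 9 tested regulators of mitochondrial biogenesis 5 were higher (50.4% of all genes were), with a median of 0.03, which was 0.07 with total counts and 0.01 after the correction. Gabpa had 2853 and 2923 counts, 0.07, Esrra 569 and 670, -0.13, and Gabpb1 1148 and 1269, -0.04. Ppargc1b had 2 and 17 counts, with an interval of the log2 ratio from -6.14 to -0.91, whereas Ppargc1a had 144 and 117 counts, 0.40 (0.05 to 0.77), and Perm1 118 and 79, 0.67 (0.26 to 1.12).

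Of 40 tested assembly factors outside the symbol rule, 24 were lower (49.6% of all genes were), with a median of -0.07, and 11 were at least 1.2-fold lower (16.4% of all genes were). With total counts in place of TMM 21 were lower, against 44.0% of all genes, with a median of -0.04. At that setting 9 were at least 1.2-fold lower, with no such count over all genes. After the length and GC correction the median was -0.03. Hccs, which attaches heme to cytochrome c, had 742 and 1527 counts, -0.93 (-1.06 to -0.81). Sco2, which helps deliver copper to complex IV, had 305 and 581 counts, -0.82 (-1.03 to -0.62). Among the higher ones, Coa7 had 632 and 545 counts, 0.32 (0.15 to 0.49), Tmem126b had 349 and 309, 0.28 (0.06 to 0.51), and Foxred1 had 1061 and 995 counts, 0.20 (0.07 to 0.33). The 5 carriers and subunits with other symbols were all below 0 (49.6% of all genes were), with a median of -0.14. Cytochrome c itself, Cycs, had 1610 and 2068 counts, -0.25 (-0.35 to -0.16), and 2010107E04Rik had 965 and 1177 counts, -0.18 (-0.30 to -0.05). Atpif1 (3710 and 4088 counts, -0.03) and Usmg5 (1600 and 1724 counts, -0.00016) were nearest to 0, with intervals that spanned 0. With total counts 4 of the 5 were below 0, against 44.0% of all genes, with a median of -0.11. After the length and GC correction 4 were, against 49.8%, with a median of -0.07. Of 17 TCA cycle genes, 12 were lower (49.6% of all genes were), with a median of -0.07, and with total counts 11 were (44.0% of all genes), with a median of -0.04. They ran from Idh3a (2685 and 3513 counts, -0.28) and Mdh2 (10201 and 12859, -0.23) to Pdhb (3877 and 3784, 0.14) and Dld (4211 and 3916, 0.21). Of 16 genes of the mitochondrial membranes, import and chaperones, 11 were lower (49.6% of all genes were), with a median of -0.10, and with total counts 10 were (44.0% of all genes), with a median of -0.07. Tomm22, a receptor of the outer-membrane import pore, had 2172 and 4829 counts, -1.04 (-1.12 to -0.97), and Slc25a5, an ADP/ATP carrier, had 13947 and 19764 counts, -0.40 (-0.43 to -0.36). Hspa9, a matrix chaperone, had 31378 and 30377 counts, 0.15 (0.13 to 0.18), and the channel Vdac1 had 11386 and 11151 counts, 0.14 (0.10 to 0.18).

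**Figure D5:**
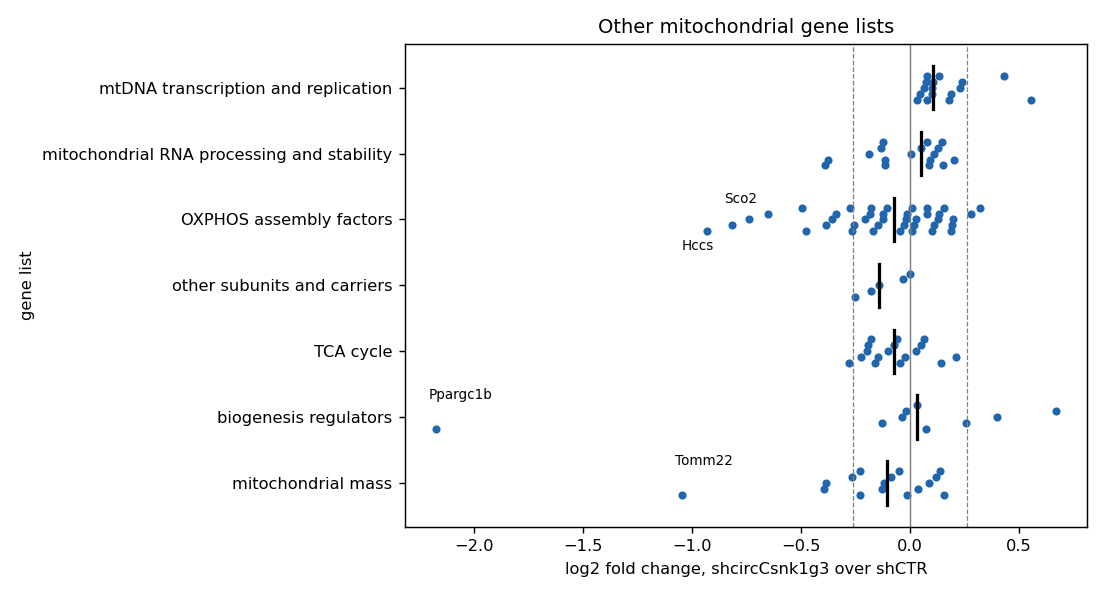
Log2 fold change of shcircCsnk1g3 over shCTR (x axis) for each tested gene (point) of 7 mitochondrial gene lists outside the symbol rule (y axis), with the median of a list as a black line and dashed lines at 1.2-fold; points are spread vertically only to be seen. All 16 genes of mtDNA transcription and replication lie above 0, and Hccs, Sco2, Tomm22 and the sparsely counted Ppargc1b (2 and 17 counts) are farthest below it.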

How the data were processed

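RNA with a poly(A) tail from 1 shcircCsnk1g3 and 1 shCTR library was sequenced with a stranded kit. Alignment by the authors was to GRCm38 with STAR, and estimated counts per gene came from RSEM, a tool that divides reads matching several genes. The deposited estimated counts are whole numbers for 25509 genes and 92 spike-ins, the latter all at 0 and left out. A further table the authors deposited holds TMM-scaled CPM for 11624 genes and served as an alternative.

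Genes below 10 counts in both libraries were dropped (12941 remained), and CPM were scaled with TMM factors (1.01 and 0.989) from edgeR 4.0.16 in R 4.3.3. Log2 fold changes used a prior count of 2. Intervals are 95% Clopper-Pearson (scipy 1.17.1) and cover counting error only. No count test was made, since each condition had 1 library. With 100 or 1000 counts in each library, the interval reached 0.41 or 0.13 to either side. Length means the union of exons in GENCODE M21, a release the sources do not state as the authors' own. Pseudogenes were sought with blastn 2.17.0. Steps were tested on simulated counts.

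The members and all lists were chosen with earlier results of these data known. Genes named were all mtDNA and complex II genes, the 3 highest and 3 lowest nuclear genes of each other complex with a mean of at least 10 CPM, isoform pairs and genes at least 2-fold different, and in other lists the 2 highest and 2 lowest with a mean of at least 10 CPM. Further genes were named after their values were seen. Alternatives were scaling by DESeq2 1.42.0 or total counts, TMM over nuclear genes, prior counts of 0.5 and 10, no filter, at least 200 summed counts, the deposited CPM table, a length and GC correction, and thresholds of 1.1-fold, 1.5-fold and 2-fold.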

Additional observations from a re-analysis of the deposited data

How the results depend on the processing

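Of 129 summary values of the nuclear, mtDNA and complex sets over all alternatives, 116 stayed within a typical counting interval of the reported value (counts: within 1.5-fold). A median changed sign in 6 cases, all with reported values of -0.02 or nearer to 0 (complex III and the complex I assembly factors). Of the 51 named members followed over the alternatives, 9 changed sign in at least 1, and other genes named in the text were not in this count. The nuclear median was between -0.07 and -0.03 and the nuclear-minus-mtDNA difference between -0.04 and -0.03. The count of nuclear members higher past the threshold was 2, and it was 4 at 1.1-fold, 0 at 1.5-fold and 0 at 2-fold, 1 with a prior count of 10 and 1 with at least 200 summed counts. The count lower was 7, and it was 27 at 1.1-fold, 1 at 1.5-fold and 1 at 2-fold. Of all genes tested, 2.55% were at least 2-fold lower and 2.13% at least 2-fold higher. Shares of all genes at 1.1-fold and 1.5-fold were not counted, so the counts there cannot be set against a background. For mtDNA members the count lower was 2, and it was 0 at 1.5-fold and 2-fold and 1 with total counts. Shares of all genes at 1.2-fold were counted only with the reported TMM scaling. The mtDNA median of -0.03 was -0.00048 with total counts and -0.0096 with the length and GC correction. Total counts placed the median of all genes at 0.03. Of 456 values of the 51 named members, 428 stayed within their counting intervals and 28 left them, 20 of these mtDNA genes. With 1 library per condition no replicate could be left out, and no spread between cultures is known. No paired analysis was possible because each condition has 1 library and no test was made. Depth was ample for most members, and the values of Cox6a2 and Cox7a1 cannot be read as differences.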
